A study of Homo sapiens with 14 samples.

Results

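The RNA libraries of this study are labelled as cells with a short hairpin against HDAC5 and cells with a control hairpin. They are 6 of the 14 samples of the series, 3 labelled shControl with the genotype WT and 3 labelled shHDAC5 with an HDAC5 knockdown, and were chosen by the column labels of the deposited count table. All 6 carry the label BxPC-3, a human line from a pancreatic ductal adenocarcinoma, and day 3. The other 8 samples are GATA1 immunoprecipitations and inputs from PANC-1, another pancreatic cancer line, and are not analysed here. No source used here says that the libraries of a label came from separate cultures. A p-value here therefore sets the difference between labels only against the spread among libraries of a label, which may be technical. The labels do not say how many hairpins or clones were used.

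HDAC5 is a class IIa histone deacetylase. Class IIa enzymes have little deacetylase activity of their own and act as corepressors: in the nucleus they bind transcription factors such as those of the MEF2 family and bring in complexes that hold the catalytic HDAC3. Phosphorylation moves them to the cytoplasm and frees their targets. A short hairpin is processed to a small RNA that directs the breakdown of the matching messenger RNA, so its target is expected to be lower in cells that carry it.

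The libraries held between 15179758 and 17854340 counts, with no difference in depth between the labels: shControl spanned that whole range. Libraries labelled shControl had between 25775 and 26078 genes with at least 1 count, and those labelled shHDAC5 between 33115 and 33632. Mitochondrial transcripts took 6.31% to 6.33% of the counts under the shControl label and 7.46% to 7.66% under the shHDAC5 label. The part of these shifts in the results was not tested. Log2 CPM (counts per 1000000, scaled between libraries) correlated at 0.9925 or more within a label and at 0.8165 or less between labels, across genes, which are not independent. Beyond counting error the fitted spread among libraries of a label was small (common dispersion 0.000656). The small adjusted p-values given here rest on that small spread. Of 19181 genes tested, 84.7% were called at an adjusted p under 0.05 with edgeR's quasi-likelihood F-test (p-values adjusted by Benjamini-Hochberg), 44.8% higher and 39.9% lower in the libraries labelled shHDAC5. Among the 13819 protein-coding genes tested 88.5% were called, 44.1% higher and 44.4% lower. CPM of the 2 labels did not overlap for 84.8% of all genes tested. Against this background, the call of a single gene carries little information, and each list of genes is given with its counts in both directions. Direction also went with level. By mean CPM, 56.2% rose and 17.6% fell in the lowest quintile of tested genes, and 39.6% rose and 53.9% fell in the highest. The median log2 fold change was 1.16 in the lowest and -0.17 in the highest. Scaling by total counts instead raised log2 fold changes by a median of 0.184, more than the size of the latter. It gave 6958 risen and 5283 fallen coding genes, so the balance of coding genes depends on the scaling. The tested genes are those of 61541 in the table that passed a filter on low counts. A gene silent under the shControl label passed it only through the other label, so the counts and medians of a list describe its tested members, not the whole list.

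HDAC5 (ENSG00000108840, chromosome 17, 44076753 to 44123641, GRCh38.p14) was higher, not lower, under the label of its knockdown. Its levels were 95.4, 91.7 and 97.7 CPM in shControl replicates 1, 2 and 3 and 162, 161 and 169 CPM in shHDAC5 replicates 1, 2 and 3, with no overlap. The log2 fold change was 0.79 (SE 0.0358, adjusted p = 3.95e-40, edgeR's quasi-likelihood test). Every direction given here is therefore between libraries as labelled. "Rose" and "fell" mean higher or lower in the libraries labelled shHDAC5 with an adjusted p under 0.05, and say nothing about less or more HDAC5.

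The control libraries carried some of the genes that mark pancreatic ductal cells and lacked others. Of 14 ductal markers, 6 were at 1 CPM or more in all 3 libraries labelled shControl and 7 in all 3 labelled shHDAC5. KRT7, SOX9, MUC1 and ONECUT2 were above 10 CPM in all 6 libraries. PDX1, the transcription factor of the pancreas, had no count in any library, and the ductal keratin KRT19 was at 0.0215 and 0.0947 CPM. The chloride channel CFTR of duct cells (0.577 and 0.346 CPM), the secreted SPP1 (0.0233 and 0.0382 CPM) and carbonic anhydrase CA2 (0 and 0.0394 CPM) were also near 0 under both labels. Of the 7 ductal markers tested, 1 rose and 5 fell. The simple-epithelium keratin KRT7 fell from 371 ± 9.72 to 25.3 ± 0.445 CPM (SD, n = 3 each) and the cell surface mucin MUC1 from 166 to 11.3 CPM. The bicarbonate cotransporter SLC4A4 was the single riser, from 0.0233 to 2.56 CPM. In RNA from whole cultures, fewer cells of a type and less RNA per cell cannot be told apart.

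General epithelial markers gave a mixed picture. Of 18, 11 reached 1 CPM under the shControl label and 9 under the shHDAC5 label, and of 14 tested 4 rose and 8 fell. The paired keratins KRT8 and KRT18 were abundant, KRT8 rising from 717 to 1010 CPM and KRT18 falling from 404 to 327 CPM. Against them stood EPCAM (1.84 and 1.99 CPM) and the adherens cadherin CDH1 (1.43 and 1.32 CPM), neither of which passed. GRHL2, a master factor of epithelial junctions, was at 0.0215 and 0.0197 CPM, and RAB25 had no count in any library. The splicing factor ESRP1 was at 0 and 0.0962 CPM, while its paralog ESRP2 fell from 60.9 to 35.8 CPM. The protease ST14 fell from 33.5 to 1.13 CPM and CLDN4 rose from 8.43 to 14.5 CPM. Per kilobase of the deposited gene length, KRT17, a basal keratin, was the most abundant of these keratins under both labels, at 275 and 710.5 RPKM, against 104 and 147 RPKM for KRT8 and 92.8 and 6.33 RPKM for KRT7.

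A pair of genes that BxPC-3 is known to lack gave counts in all 6 libraries. The line is widely described as having lost both copies of CDKN2A, which encodes the cell cycle inhibitors p16 and ARF, and of SMAD4, the common mediator of TGF-beta signalling. CDKN2A (chromosome 9, 21967752 to 21995324, GRCh38.p14) was at 145, 149 and 155 CPM in the shControl libraries and at 14.4, 13.6 and 13.1 CPM in the shHDAC5 libraries (log2 fold change -3.45, SE 0.053, adjusted p = 4.62e-84, edgeR's quasi-likelihood test). Its neighbours did not move with it to the same extent. CDKN2B, the next gene, rose from 42.9 to 60.2 CPM, the antisense transcript CDKN2B-AS1 fell from 17 to 2.18 CPM, and MTAP, an enzyme of methionine salvage, fell from 71.3 to 38.7 CPM. SMAD4 (chromosome 18, 51030213 to 51085042) was at 48.6, 47.6 and 52.5 CPM against 45.9, 47.4 and 47.1 CPM, which lay apart by less than 1 CPM at their nearest and did not pass (adjusted p = 0.132, edgeR's quasi-likelihood test). It was called lower without shControl replicate 2 (log2 fold change -0.13), and its sign turned under upper-quartile and total-count scaling. Beside it ME2, a malic enzyme, rose from 36.1 to 52.9 CPM, MEX3C fell from 34.2 to 19.4 CPM, ELAC1 rose from 2.52 to 4.86 CPM, MBD2 fell from 64.7 to 35.4 CPM and the DNA polymerase POLI rose from 20.1 to 27.2 CPM. Of the 13 genes at these loci 12 were tested, and 5 rose and 5 fell, with DMRTA1 the other riser and DCC, at 0.0233 and 0.593 CPM, untested. The counts at CDKN2A and SMAD4 go against what is known of the labelled line, while the ductal markers were mixed, with 4 of 14 above 10 CPM in all 6 libraries. The cause was not tested, and the libraries are called by their labels only.

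Markers of several other lineages were detected more often under the shHDAC5 label, beside the larger number of genes with a count there. Islet, lung, fibroblast, pluripotency and cancer-testis markers were detected equally often under both labels, and megakaryocyte markers less often under the shHDAC5 label. Of 14 neuronal markers, 5 reached 1 CPM in all shControl libraries and 9 in all shHDAC5 libraries, and 8 of 9 tested rose and none fell. The dendritic microtubule protein MAP2 was at 3.22, 2.86 and 3.38 CPM in the shControl libraries and at 94.9, 93.2 and 92.6 CPM in the shHDAC5 libraries, far apart. The synaptic vesicle protein SYP rose from 1.24 to 29.3 CPM and the neuronal tubulin TUBB3 rose from 4.74 to 35.3 CPM, while SNAP25, at 41.9 and 44.5 CPM, passed only under upper-quartile and total-count scaling, as higher. The summed level of the 14 markers was 49.5 to 55 CPM against 218 to 223 CPM. The defining neuronal RNA-binding proteins ELAVL3 and ELAVL4 stayed below 0.3 CPM.

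Melanocyte genes split along the pathway. Of 11 markers, 2 reached 1 CPM under the shControl label and 7 under the shHDAC5 label, and 6 of 8 tested rose and 2 fell. PMEL, the fibril protein of pigment granules, rose from 6.2 to 141 CPM and DCT, an enzyme of melanin synthesis, rose from 0.0402 to 15.5 CPM. MITF, the transcription factor that drives this program in melanocytes, fell from 91.6 to 29 CPM. Tyrosinase, TYR, which defines pigment synthesis, was at 0 and 0.0383 CPM, and RAB38 had no count in any library. The summed levels were 96 to 102 and 192 to 199 CPM.

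The other lineage lists were carried by few genes. Acinar markers numbered 1 and 5 of 16 at 1 CPM under the 2 labels, and all 5 tested rose, CELA2A from 0.618 to 4.39 CPM. PTF1A, the acinar transcription factor, PRSS2, PNLIP, AMY2A and CELA3B had no count. Islet markers numbered 3 of 16 under each label. MAFA was the only islet gene above 10 CPM in all 6 libraries (from 21.8 to 18.7 CPM, a call lost under 2 other scalings and with DESeq2), and INS, SST, NKX6-1, NKX2-2 and INSM1 had no count. Of 4 islet genes tested, 2 rose and 2 fell. Squamous and basal markers numbered 6 and 7 of 12, with 5 of 7 tested rising: KRT17 rose from 824 to 2129 CPM and TP63, the master factor of basal cells, rose from 0.461 to 14.3 CPM, while TRIM29 fell from 411 to 86.8 CPM and KRT5 and KRT6A stayed below 1 CPM.

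Blood lineage lists held several genes that were near 0 under the shControl label. Myeloid markers numbered 2 and 6 of 15, with 5 of 7 tested higher and 2 lower (median log2 fold change 5.60, or 4.56 with genes without counts at their bound). The integrin ITGAM had no count in the shControl libraries and reached 2.78 CPM, while the growth factor receptor CSF1R fell from 6.7 to 2.98 CPM. The myeloid factor SPI1 was at 0.0868 and 0.264 CPM and AIF1 had no count. Erythroid markers numbered 2 and 6 of 17, with 5 of 7 tested higher. HBB, adult beta-globin, had no count in the shControl libraries and reached 5.13 CPM, ALAS2, which starts heme synthesis in red cell precursors, rose from 1.01 to 4.72 CPM, and the erythropoietin receptor EPOR fell from 23 to 12.8 CPM. The erythroid factors TAL1 (0 and 0.0559 CPM) and KLF1 (0.0429 and 0.444 CPM) stayed low, and GYPB had no count. Megakaryocyte markers numbered 4 and 3 of 11, with 2 of 5 tested higher, among them THBS1, and 2 lower. Lymphoid and pan-leukocyte markers numbered 1 and 3 of 13, with 2 of 3 tested higher. PTPRC, the common leukocyte antigen CD45, was at 0.0215 and 0.0968 CPM.

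Among other epithelia, intestinal markers numbered 2 and 3 of 12 and hepatocyte markers 2 and 3 of 12. Of 4 intestinal genes tested, 2 rose and 2 fell, and of 5 hepatocyte genes 3 rose, ALB from no count to 2.03 CPM among them, and 2 fell. Breast luminal markers numbered 4 and 5 of 12 (3 rose and 3 fell of 7 tested, TRPS1 from 35.2 to 6.11 CPM). Prostate markers numbered 5 and 6 of 11 (3 rose and 2 fell of 7), with FOLH1 at 0. Lung markers numbered 1 of 10 under each label, and the only gene tested, AGER, fell from 5.48 to 2.73 CPM. Kidney and urinary markers numbered 1 and 2 of 12, with 1 higher and 1 lower of 2 tested.

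Mesenchymal and germ cell lists differed less in detection. Fibroblast markers numbered 6 of 14 under each label, with 2 higher and 5 lower of 7 tested. Fibronectin, FN1, rose from 239 to 316 CPM, the receptor PDGFRB fell from 29.6 to 6.59 CPM and the intermediate filament VIM fell from 428 to 209.5 CPM, while LUM had no count. Muscle markers numbered 6 and 7 of 12 (4 rose, 2 fell of 7), with desmin, DES, from 1.91 to 16.9 CPM. Endothelial markers numbered 2 and 3 of 12 (1 rose, 2 fell of 4), with the junction protein ESAM from 30.9 to 20.2 CPM. Glial markers numbered 2 and 4 of 12 (5 rose, 1 fell of 6), led by the progenitor filament nestin, NES, from 8.15 to 42.1 CPM. Pluripotency and germ cell markers numbered 2 of 13 under each label (1 rose, 2 fell of 3): SALL4 fell from 62.9 to 6.28 CPM and POU5F1, whose reads could be shared with its processed copies, fell from 16.8 to 3.21 CPM. Cancer-testis antigens numbered 4 of 22 under each label (4 rose, 1 fell of 6): PRAME fell from 74.2 to 35.2 CPM and MAGEA1, which has near-identical relatives, rose from 41.1 to 61.1 CPM.

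**Figure D1:**
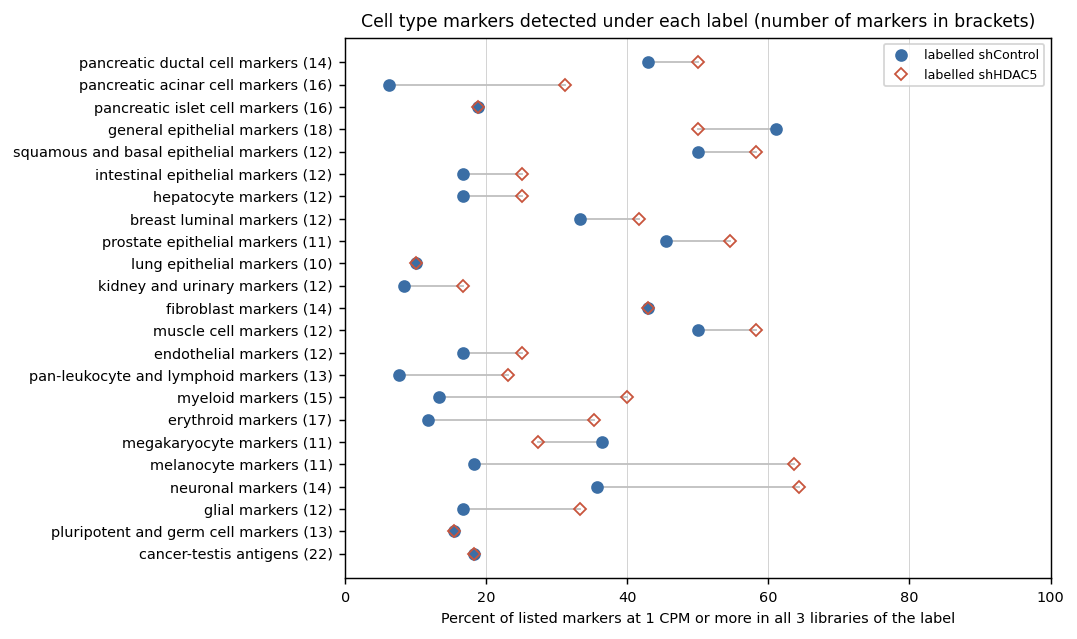
Percent of each list of cell type markers at 1 CPM or more in all 3 libraries of a label (x axis, percent), 1 row per list with its number of markers in brackets, filled circles for shControl and open diamonds for shHDAC5. Melanocyte markers differed most, with 18.2% against 63.6%, and general epithelial and megakaryocyte markers were detected less often under the shHDAC5 label.

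In CPM, the largest differences were those of CGA and ASS1. CGA (ENSG00000135346, chromosome 6, 87085498 to 87095106, GRCh38.p14) encodes the common alpha subunit of the glycoprotein hormones and is normally made in placenta and pituitary. It was at 646, 674 and 679 CPM in the shControl libraries and at 6481, 6257 and 6484 CPM in the shHDAC5 libraries (log2 fold change 3.27, SE 0.0231, adjusted p = 5.96e-117, edgeR's quasi-likelihood test). It was the largest rise in CPM of any protein-coding gene. The largest fall was that of ASS1 (ENSG00000130707, chromosome 9, 130444707 to 130501274), argininosuccinate synthase, which makes the precursor of arginine from citrulline and aspartate. It went from 6580, 6741 and 6743 to 832, 829 and 855 CPM (log2 fold change -2.995, SE 0.0221, adjusted p = 3.57e-115, edgeR's quasi-likelihood test), without overlap.

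The promoters of CGA and ASS1 are shown because these genes moved the most CPM in each direction. They are the 250 bases before the start of the gene from RefSeq (GRCh38.p14), written 5′ to 3′ on the gene's strand, CGA from chr6:87095107-87095356 on the minus strand and ASS1 from chr9:130444457-130444706 on the plus strand, its first listed start. Capitals mark exact matches, on both strands, to TGACGTCA, the palindrome known as the cAMP response element, and to TATAAA, the core of a TATA box. The 2 motifs do not overlap each other.
CGA: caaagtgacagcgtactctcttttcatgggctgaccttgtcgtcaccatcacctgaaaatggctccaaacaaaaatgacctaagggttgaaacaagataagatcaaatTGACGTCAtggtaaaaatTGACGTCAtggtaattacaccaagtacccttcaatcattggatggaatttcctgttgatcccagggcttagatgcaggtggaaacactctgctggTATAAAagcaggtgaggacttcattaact
ASS1: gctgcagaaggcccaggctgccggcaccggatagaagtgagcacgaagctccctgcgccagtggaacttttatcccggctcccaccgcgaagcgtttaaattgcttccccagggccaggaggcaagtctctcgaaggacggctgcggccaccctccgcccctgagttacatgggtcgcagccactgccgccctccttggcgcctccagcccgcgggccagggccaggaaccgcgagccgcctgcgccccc
CGA held 2 copies of TGACGTCA, 1 TATAAA and 4 CG pairs, and ASS1 held neither motif and 21 CG pairs. Of 27305 RefSeq promoters of this length, 1.77% held TGACGTCA and 11.1% held TATAAA. The 311 tested coding genes with TGACGTCA split into 149 that rose and 121 that fell (median log2 fold change 0.09), and the 659 with TATAAA into 342 and 252 (median 0.25). Of all 11176 coding genes with a listed promoter 4879 rose and 4991 fell (median -0.01).

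The other genes with the largest rises in CPM were of several kinds. The cytoplasmic actin ACTG1 rose from 1798 to 4335 CPM, although its reads could be shared with copies of the gene, and KRT17 also stood among the 12. The secreted chaperone clusterin, CLU, rose from 743 to 2697 CPM and the endoplasmic reticulum chaperone HSPA5 rose from 718 to 2420 CPM. RIMKLB, a glutamate ligase that makes N-acetylaspartylglutamate, rose from 261 to 1550 CPM, and the paternally expressed, retrotransposon-derived PEG10 rose from 201 to 1348 CPM. The matricellular proteins CCN2 (from 105 to 1164 CPM) and CCN1 (from 99.4 to 1009 CPM) and the orphan receptor NR4A1 (from 135 to 1280 CPM) rose as well. Of the mitochondrially encoded genes, MT-CO1 rose from 15610 to 16900 CPM and MT-ND1 rose from 1306 to 2240 CPM, beside the larger mitochondrial share of counts.

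The largest falls in CPM after ASS1 included the translation elongation factors EEF1A1 (from 9311 to 4230 CPM) and EEF2 (from 6315 to 4818 CPM), the first of which has many processed copies. The glycolytic enzymes ENO1 (from 3196 to 1227 CPM) and LDHA (from 2350 to 1304 CPM) were lower. Of the alkaline phosphatases, the intestinal form ALPI fell from 1936 to 113 CPM, the tissue-nonspecific form ALPL fell from 1542 to 285 CPM and the placental form ALPP fell from 79.3 to 13.3 CPM, while ALPG, the germ cell form, rose from 4.6 to 22.3 CPM. ALPI, ALPP and ALPG are close copies, so reads between them are uncertain. The sodium pump subunit ATP1B3 fell from 1517 to 252 CPM, the stimulatory G protein subunit GNAS fell from 1608 to 439 CPM, the amino acid transporter SLC7A5 fell from 1399 to 276 CPM, the complement regulator CD46 fell from 1767 to 728 CPM and the anchoring collagen COL7A1 fell from 2032 to 1006 CPM. The 12 coding genes at the top held a small share of the shift: 538 genes made up 50% of the summed rise in CPM and 506 genes 50% of the summed fall.

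**Figure D2:**
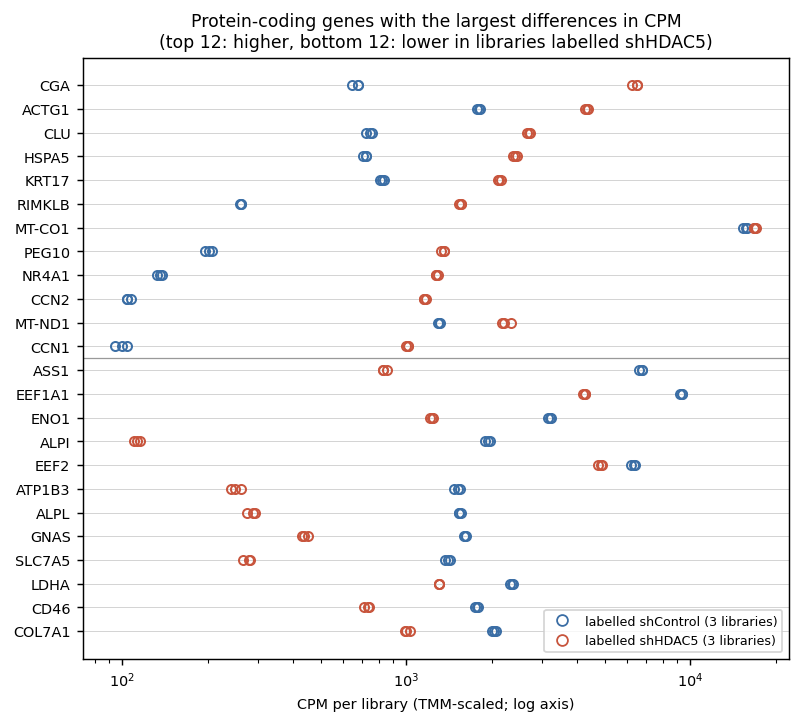
TMM-scaled CPM per library (x axis, log scale) for the 12 protein-coding genes that rose most and the 12 that fell most in CPM, 1 circle per library, blue for shControl and red for shHDAC5. For each of the 24 genes the 3 libraries of a label lie close together and apart from the other label, from 15610 against 16900 CPM for MT-CO1 to 1936 against 112.9 CPM for ALPI.

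The urea, arginine and polyamine enzymes had no lean, with 12 of 26 higher and 12 lower. CPS1, which starts the urea cycle in mitochondria, was at 464, 466 and 472 CPM in the shControl libraries and at 10.8, 10.5 and 9.67 CPM in the shHDAC5 libraries (log2 fold change -5.50, SE 0.0445, adjusted p = 1.78e-111, edgeR's quasi-likelihood test). It thus fell with ASS1, as did spermidine synthase, SRM, from 52.4 to 21.4 CPM. Among the risers, arginase ARG2 rose from 2.81 to 29.4 CPM, the rate-limiting polyamine enzyme ODC1 rose from 55.4 to 363 CPM and ornithine aminotransferase, OAT, rose from 34.1 to 109 CPM.

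Replication, kinetochore and cohesin genes were mostly lower under the shHDAC5 label, and the anaphase-promoting complex was mixed. Of 40 replication proteins, 34 fell and 5 rose (median log2 fold change -1.09), against 39.9% and 44.8% of all genes. The helicase subunit MCM5 fell from 139 to 24 CPM and the licensing factor CDT1 fell from 187 to 33 CPM, while GINS4, another helicase component, rose from 43.8 to 97 CPM and the origin recognition subunit ORC4 rose from 26.3 to 53.4 CPM. Of 34 kinetochore and checkpoint proteins, 29 fell and 2 rose (median -1.36). The kinase AURKB, which corrects faulty spindle attachments, was at 100.3, 99.8 and 97.5 CPM against 10.1, 9.39 and 9.34 CPM (log2 fold change -3.37, SE 0.0627, adjusted p = 4.49e-76, edgeR's quasi-likelihood test), and MIS12 and CENPT were the risers. Of 17 cohesin and condensin subunits, 15 fell and STAG1 rose (median -1.05; 2 rose under upper-quartile and total-count scaling). STAG1 and STAG2 are alternative subunits of the same ring: STAG2 fell from 342 to 42.6 CPM, while STAG1 rose from 30.4 to 40.5 CPM. The anaphase-promoting complex, which tags mitotic proteins for breakdown, had 9 of 16 lower (ANAPC16 from 153 to 29.8 CPM) and 7 higher (ANAPC11 from 35.5 to 48.8 CPM).

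Repair genes were also lower more often than higher. Of 27 Fanconi and homologous recombination proteins 20 fell and 4 rose (median -0.73), with BRCA1 from 119 to 25.4 CPM and FANCB from 17.3 to 36.1 CPM. Of 33 mismatch and excision repair proteins 23 fell and 6 rose (median -0.41), with the uracil glycosylase UNG from 156 to 29 CPM and the helicase ERCC2 from 61.4 to 142 CPM.

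Among chromatin regulators other than the deacetylases, DNA methylation enzymes and acetyltransferases were mostly lower, and the other lists were less one-sided. Of 13 DNA methylation enzymes and readers, 11 fell and MBD1 rose (median -0.87; 2 rose under upper-quartile and total-count scaling). The de novo methyltransferase DNMT3A fell from 22 to 2.31 CPM, the maintenance cofactor UHRF1 fell from 160.2 to 25.7 CPM and the demethylating dioxygenase TET3 fell from 45.9 to 4.68 CPM, while MBD1, which binds methylated DNA, rose from 50.1 to 146 CPM. Of 15 acetyltransferases and coactivators, 10 fell and 5 rose (median -0.49). The related coactivators CREBBP and EP300 parted, CREBBP falling from 98 to 37.2 CPM and EP300 rising from 58.7 to 79.9 CPM, and so did NCOA2 (from 37 to 8.62 CPM) and NCOA3 (from 125 to 254 CPM). Of 22 SWI/SNF subunits 12 fell and 6 rose (median -0.24): the DNA-binding subunits ARID1A, ARID1B and ARID2 fell, ARID1B from 40.6 to 4.29 CPM, and SMARCD3, a subunit of muscle and neural forms, rose from 8.07 to 33.7 CPM. Of 30 Polycomb subunits 15 fell and 10 rose (median -0.18), a lean that turned when libraries were scaled by total counts. PHF19 fell from 121 to 17.8 CPM and RYBP rose from 40.7 to 145 CPM. Of 22 histone demethylases 11 rose and 10 fell (median 0.13; 6 fell under total-count scaling), KDM1B from 64 to 198 CPM and PHF2 from 37.9 to 6.3 CPM.

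The transcription machinery and the splicing regulators went in opposite directions. Of 38 subunits of RNA polymerase II and the general factors, 26 rose and 8 fell (median 0.33), with TAF3 from 9.32 to 24.4 CPM and GTF2H1 from 53.1 to 29.6 CPM. Of 31 Mediator subunits, which link activators to the polymerase, 18 rose and 9 fell (median 0.33; 5 fell in each of these lists under upper-quartile and total-count scaling), MED10 from 73 to 232 CPM and the kinase module subunit MED12 from 75.4 to 22.7 CPM. Of 42 SR and hnRNP proteins and related splicing regulators, 40 fell, and the 2 that rose were NOVA2 and CELF2 (median -1.06). MBNL3 was at 129.6, 117 and 132 CPM against 3.07, 2.92 and 2.4 CPM, and the SR protein SRSF1 fell from 91.7 to 20.9 CPM. NOVA2, a splicing factor best known in neurons, was at 0.257, 0.489 and 0.362 CPM against 38.8, 40 and 39.5 CPM (log2 fold change 6.72, SE 0.16, adjusted p = 7.59e-66, edgeR's quasi-likelihood test). The summed level of the list was 12290 to 12460 CPM in the shControl libraries and 5958 to 6023 CPM in the shHDAC5 libraries.

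The core spliceosome moved less: of 42 proteins 24 fell and 13 rose (median -0.14), a lean that turned under total-count scaling. SNRPA of the U1 particle fell from 93.4 to 30.1 CPM and SF3B5 of the U2 particle rose from 30.7 to 69.5 CPM. Of 29 nuclear pore proteins 19 fell and 8 rose (median -0.37), with the membrane-spanning NUP210 from 656 to 81.3 CPM and NUP98 from 223 to 501 CPM.

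Genes that build and run ribosomes were lower more often than higher, as were all tested genes in the highest quintile by mean CPM (53.9% fell, 39.6% rose, median -0.17). Of 79 cytosolic ribosomal proteins 59 fell and 13 rose, by small steps (median -0.32). Upper-quartile scaling gave 46 and 21, total-count scaling 44 and 24 (median -0.13), and without shControl replicate 1 the risers were 8. Against a 1.5-fold change 11 fell and none rose. Their summed level was 53300 to 56880 CPM against 41260 to 42600 CPM. RPSA fell from 1477 to 698 CPM and RPL38 rose from 147 to 205 CPM, and reads of all of them can be shared with many processed copies. Of 67 ribosome biogenesis factors 40 fell and 20 rose (median -0.46), with UBTF, which activates ribosomal DNA, from 112 to 20.7 CPM and RRP9 from 21.9 to 65.6 CPM. Of 75 mitochondrial ribosomal proteins 43 fell and 19 rose (median -0.25), MRPL11 from 53.5 to 12.9 CPM and MRPS10 from 65.7 to 122 CPM. Total-count scaling gave 34 and 27 (median -0.06). Of 40 initiation factors 23 fell and 13 rose (median -0.20), EIF2S2 from 247 to 90.1 CPM and EIF4E3 from 6.57 to 19 CPM. Total-count scaling gave 20 and 18 (median -0.02). Of 20 cytosolic aminoacyl-tRNA synthetases, which charge tRNAs with amino acids, 17 fell and 3 rose (median -0.80): YARS1 fell from 319 to 81.7 CPM and AARS1 fell from 674 to 219 CPM, while RARS1 rose from 99.2 to 251 CPM.

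Protein folding and breakdown showed no common direction. The proteasome was mixed, with 18 of 39 lower and 15 higher (median -0.05), a lean that turned under upper-quartile and total-count scaling. The immunoproteasome subunits PSMB8 (from 19.4 to 4.68 CPM) and PSMB9 (from 2.54 to 6.82 CPM) parted, and the ubiquitin receptor ADRM1 rose from 63.8 to 146 CPM. Of 14 chaperonin and prefoldin subunits 9 fell and 4 rose, which turned under the same 2 scalings, with CCT5 from 756 to 508 CPM and PFDN6 from 41.8 to 70.3 CPM. The endoplasmic reticulum chaperones and translocon subunits were tied at 17 in each direction of 38, and 21 rose under both upper-quartile and total-count scaling. Within that list HSPA5 and the quality control adaptor SEL1L (from 134 to 442 CPM) rose, and the derlins DERL1 (from 56.6 to 23.2 CPM), DERL2 and DERL3 (from 13.7 to 2.89 CPM), which extract misfolded proteins, fell.

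Lysosomal and vacuolar genes were higher. Of 20 subunits of the vacuolar ATPase, the pump that acidifies lysosomes, 15 rose and 2 fell (median 0.59), and the summed level was 1134 to 1142 CPM against 2137 to 2173 CPM. The membrane subunit ATP6V0A1 was at 48.8, 48.6 and 48.5 CPM in the shControl libraries and at 240.1, 236 and 226 CPM in the shHDAC5 libraries (log2 fold change 2.27, SE 0.0381, adjusted p = 2.34e-80, edgeR's quasi-likelihood test). Its paralog ATP6V0A4, typical of kidney, fell from 9.35 to 1.88 CPM, and ATP6V1H fell from 49.2 to 38.3 CPM. Of 46 lysosomal enzymes and membrane proteins 28 rose and 15 fell (median 0.48): the sialidase NEU1 rose from 27.6 to 209 CPM and the ganglioside activator GM2A rose from 41.1 to 214 CPM, while the sulfatase ARSB fell from 29.2 to 3.14 CPM. Of 36 autophagy proteins 24 rose and 8 fell (median 0.36; 5 fell under upper-quartile and total-count scaling). The lipid transfer protein ATG2A rose from 82.9 to 381 CPM and the protease ATG4B rose from 59.5 to 266 CPM, and both initiating kinases fell, ULK1 from 471 to 266 CPM and ULK2 from 18.6 to 4.23 CPM. Of 20 coat proteins of the secretory pathway 11 rose and 9 fell (median 0.23; 4 fell under total-count scaling), COPE from 54.5 to 132 CPM and SEC23A from 85.8 to 52.7 CPM. RAB GTPases, which direct vesicles, were mixed (23 rose and 21 fell of 52, median 0.01), with RAB3A of secretory vesicles from 9.07 to 32.7 CPM and RAB27A from 19.6 to 2.17 CPM.

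Enzymes that make nucleotides and their building blocks were lower as a group. Of 33 serine, folate and nucleotide enzymes 27 fell and 2 rose (median -1.31; 4 rose under upper-quartile and total-count scaling). Thymidylate synthase, TYMS, was at 41.6, 45.9 and 43.5 CPM in the shControl libraries and at 3.96, 2.12 and 2.91 CPM in the shHDAC5 libraries (log2 fold change -3.87, SE 0.106, adjusted p = 5.24e-60, edgeR's quasi-likelihood test). The mitochondrial folate enzyme MTHFD1L fell from 198 to 27.4 CPM and the serine pathway enzyme PSAT1 fell from 172 to 38.1 CPM. The p53-induced ribonucleotide reductase subunit RRM2B rose from 38.8 to 69.1 CPM.

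Energy metabolism was closer to the background. Of 27 glycolysis and pentose phosphate enzymes 15 fell and 10 rose (median -0.36), with the liver and platelet phosphofructokinases PFKL (from 342 to 116 CPM) and PFKP (from 359 to 132 CPM) lower and the muscle form PFKM (from 258 to 382 CPM) higher, and with PGLS from 60 to 18.9 CPM and ALDOA from 32.1 to 89.6 CPM. Of 26 citric acid cycle enzymes 11 rose and 11 fell (median -0.05), which became 16 and 8 under upper-quartile and total-count scaling (medians 0.09 and 0.13). Subunits of the same NAD-dependent isocitrate dehydrogenase parted, IDH3A from 26.7 to 88.7 CPM and IDH3B from 50.5 to 22 CPM, and ME3 fell from 36.7 to 5.48 CPM. Complex I nuclear subunits leaned down (22 fell and 14 rose of 37, median -0.36), NDUFA6 from 26.6 to 10.3 CPM and NDUFA2 from 18.3 to 55.6 CPM. Subunits of complexes II to V were near balance (19 fell and 16 rose of 39), a lean that turned under upper-quartile and total-count scaling, ATP5MC2 from 182 to 77.2 CPM and COX6A1 from 49.6 to 113 CPM. Of 30 mitochondrial import proteins 14 fell and 9 rose (median -0.22; 13 each under total-count scaling), TIMM13 from 34.1 to 10.4 CPM and TIMM17A from 60.8 to 125 CPM.

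Of 28 fatty acid oxidation enzymes 15 rose and 10 fell (median 0.29). The peroxisomal thiolase ACAA1 rose from 21.8 to 69.3 CPM, while its mitochondrial counterpart ACAA2 fell from 78 to 27.2 CPM and the isomerase ECI1 fell from 157 to 34.3 CPM. Of 17 peroxisome biogenesis factors 9 fell and 6 rose (median -0.32), PEX14 from 28.2 to 12.3 CPM and PEX19 from 44.4 to 85.2 CPM. Of 25 sphingolipid and ganglioside enzymes 11 fell and 9 rose (median -0.13; 11 each under total-count scaling). The ceramide synthases parted, CERS2 falling from 165 to 24.6 CPM and CERS6 rising from 34.9 to 89.3 CPM, and ST3GAL5, which makes ganglioside GM3, rose from 8.07 to 28 CPM.

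Ion channels were often higher, and from low levels. Of 52 voltage-gated and inward-rectifier potassium channels only 25 passed the filter on low counts, and of these 18 rose and 4 fell (median 2.46). KCNJ16 fell from 44.5 to 4.65 CPM and KCNQ1 fell from 90.3 to 22.5 CPM. The summed levels of the list overlapped, at 229 to 245 CPM under the shControl label and 228 to 231 CPM under the shHDAC5 label. Of 25 sodium and calcium channel subunits 17 rose and 6 fell (median 2.20). The auxiliary sodium channel subunit SCN3B rose from 0.391 to 39.7 CPM, SCN9A went from no count to 9.62 CPM, and the calcium channel subunit CACNA2D1 fell from 99.1 to 4.6 CPM.

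Junction and matrix lists went in different directions. Of 22 claudins and tight junction proteins 13 rose and 7 fell (median 1.08), cingulin, CGN, from 6.52 to 76.5 CPM and CLDN7 from 115 to 10.7 CPM. Of 25 cadherins and desmosome proteins 13 rose and 10 fell (median 0.32): the muscle cadherin CDH15 rose from 0.37 to 23.4 CPM and the desmoglein DSG2 fell from 267 to 59.5 CPM. Of 20 integrin subunits 10 rose and 7 fell (median 0.05). ITGAX, the leukocyte integrin CD11c, was at 0.193, 0.14 and 0.121 CPM against 54.4, 57 and 52 CPM, and ITGB4, the hemidesmosome subunit, fell from 186 to 37.4 CPM. ITGAX is no member of the myeloid list above, whose factor SPI1 stayed below 1 CPM.

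Of 32 collagens 19 rose and 9 fell (median 0.73), although the summed level went down, from between 5582 and 5823 to between 3742 and 3855 CPM. COL20A1 rose from 0.068 to 26.3 CPM and COL5A3 rose from 0.722 to 167 CPM, while the basement membrane collagens COL4A1 (from 301 to 95.7 CPM), COL4A2 (from 740.5 to 240.1 CPM) and COL15A1 (from 211 to 18 CPM) fell with COL7A1. Laminins and basement membrane proteins leaned the same way as these, with 12 of 19 lower and 6 higher (median -0.53), fibrillin, FBN1, from 287 to 32.7 CPM and fibulin, FBLN5, from 4.74 to 26.9 CPM. Of 18 matrix metalloproteinases and inhibitors 13 rose and 3 fell (median 0.79). The collagenase MMP13 rose from 0.686 to 28.9 CPM and MMP1 went from no count to 3.34 CPM, and the members that fell were MMP17 (from 79.1 to 47.8 CPM) and the inhibitors RECK and TIMP2 (from 346 to 286 CPM). Clustered protocadherins were few: 12 of 52 passed the filter, 10 fell and none rose (median -2.14), while 8 rose when no filter was applied, with PCDHB13 from 14.2 to 2.2 CPM and uncertain reads among near copies.

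Growth factor receptors were mixed, and feedback inhibitors of their signalling were higher more often. Of 39 receptor tyrosine kinases 21 rose and 17 fell (median 0.20). All 3 TAM receptors, which bind GAS6, changed: AXL (from 158 to 25.3 CPM) and TYRO3 (from 47 to 8.2 CPM) fell, and MERTK went from no count to 4.85 CPM. The collagen receptor DDR1 fell from 119.6 to 17.5 CPM and the ephrin receptor EPHA7 rose from 5.13 to 26.1 CPM. Of 21 dual-specificity phosphatases, Sprouty and SPRED proteins, which damp MAP kinase signalling, 14 rose and 4 fell (median 0.94): DUSP6, which acts on ERK, rose from 1.02 to 42.5 CPM, SPRY4 rose from 0.973 to 10.7 CPM and DUSP16 fell from 161 to 58.2 CPM.

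Components of the TGF-beta and BMP pathway were lower more often than higher, with 26 of 39 down and 10 up (median -0.89). Among ligands BMP8A rose from 2.43 to 42.5 CPM, INHBA rose from 0.492 to 13.4 CPM and TGFB3 fell from 4.52 to 0.822 CPM. The co-receptor TGFBR3 fell from 178 to 28.6 CPM and the activin antagonist FSTL3 fell from 182 to 29.3 CPM. Of 46 WNT genes 23 rose and 18 fell (median 0.34). Of the ligands, WNT4 rose from 0.0913 to 8.98 CPM and WNT10B fell from 380.1 to 46 CPM. The ligand carrier WLS (from 82.7 to 13.2 CPM) and the co-receptor LRP5 (from 137 to 11.3 CPM) fell, and the feedback inhibitor NKD1 rose from 1.67 to 35.8 CPM. Of 31 NOTCH genes 16 rose and 11 fell (median 0.10), with the ligand JAG2 from 106 to 36.5 CPM, the target HES6 from 2.37 to 29.9 CPM and HES7 from 40.4 to 11.7 CPM.

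Chemokines and interleukins were low under both labels, with a summed level of 146 to 148 CPM and 143 to 146 CPM. Of 23 that passed the filter among 64, 14 rose and 7 fell (median 3.36). With a filter of at least 1 CPM in 3 libraries 8 rose, so the count and the median rest in part on members near 0. CXCL8, which attracts neutrophils, had no count in the shControl libraries and was at 16.4, 15.6 and 18.9 CPM in the shHDAC5 libraries, at least 263-fold higher against 3 counts over the group. The cytokines LIF (from 23.3 to 5.34 CPM) and IL6 (from 2.64 to 0.676 CPM) fell. Antigen presentation genes leaned down (13 fell and 9 rose of 26, median -0.24), but were tied at 11 each under upper-quartile and total-count scaling. The master regulators of class II and class I genes, CIITA (from 53.1 to 4.21 CPM) and NLRC5 (from 48.9 to 5.55 CPM), fell. Among class II genes, HLA-DMB (from 3.13 to 20.4 CPM) and HLA-DPB1 (from 0.232 to 13.1 CPM) rose. CD74, the class II invariant chain, had the lowest log2 fold change of 42 tested CD genes, so class II genes had no common direction. Of 31 caspase, BCL2 family and inhibitor genes 15 fell and 11 rose (median -0.09), which turned under upper-quartile and total-count scaling. BIRC3, an inhibitor of apoptosis induced by NF-kappaB, was at 15.7, 14.7 and 17.3 CPM in the shControl libraries and at 550.3, 577 and 582 CPM in the shHDAC5 libraries. The death agonist BID fell from 35.7 to 6.55 CPM.

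Nuclear receptors were tied, 17 up and 17 down of 39 (median 0.06): beside NR4A1, the retinoic acid receptor RARB rose from 0.164 to 13.2 CPM, while RARG fell from 90.1 to 18.3 CPM and NR2F1 fell from 73 to 6.8 CPM. Of 23 clock genes 12 fell and 7 rose (median -0.16): the cryptochromes CRY1 (from 40 to 118 CPM) and CRY2 (from 12 to 70.5 CPM) and BMAL1 (from 36.5 to 107 CPM) rose, and the clock output factor DBP (from 13.9 to 4.19 CPM) fell.

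**Figure D3:**
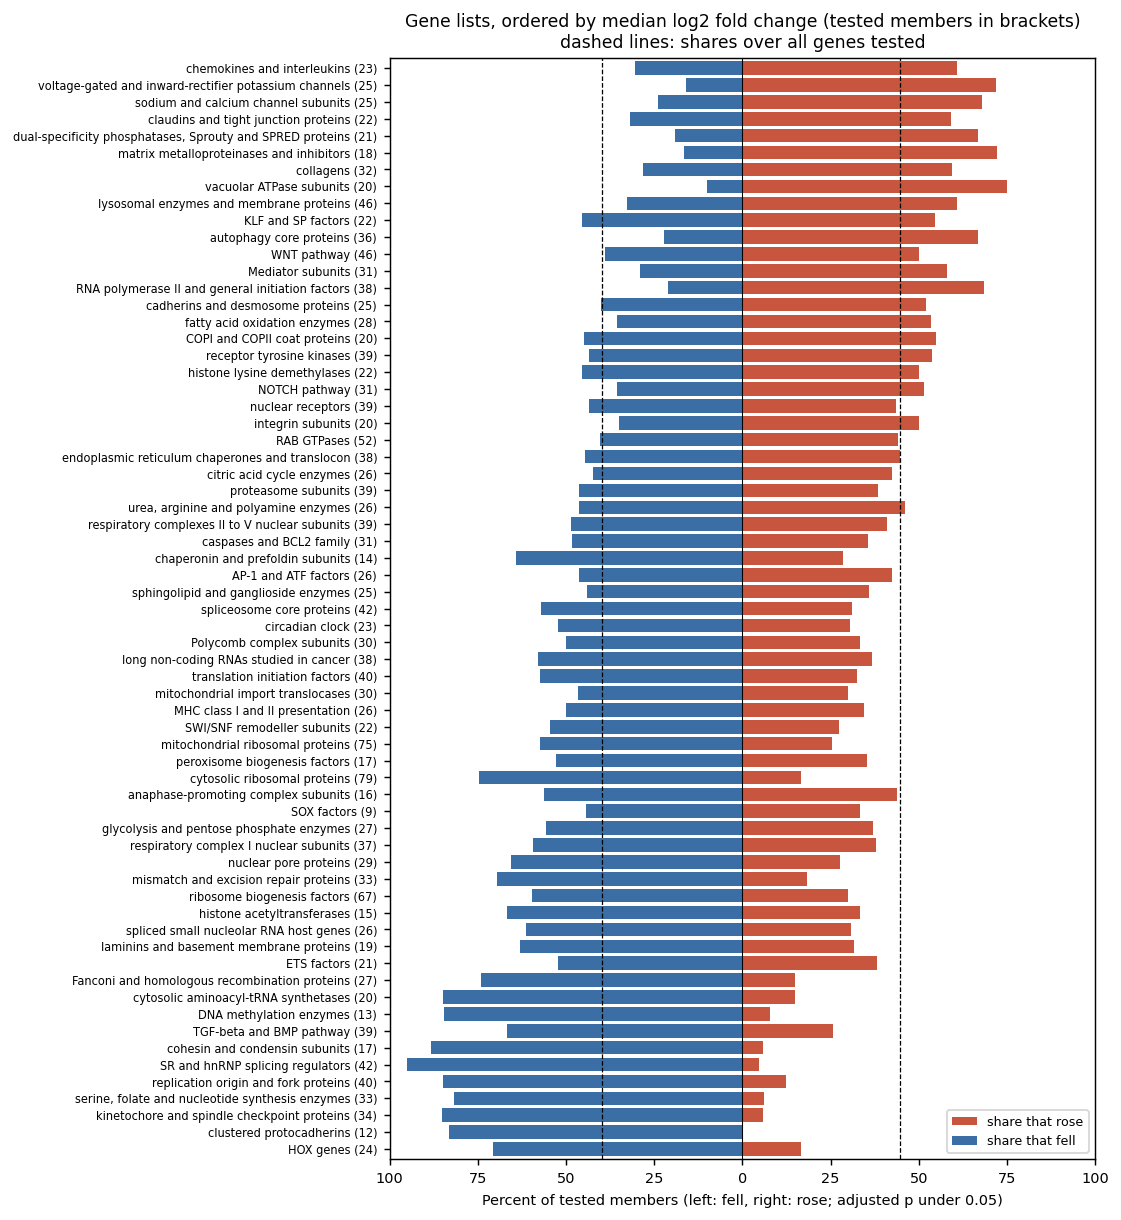
Percent of the tested members of each of 65 lists that rose (right, red) or fell (left, blue) in the libraries labelled shHDAC5, ordered by median log2 fold change, with the number tested in brackets. The dashed lines are the shares over all 19181 genes, 44.8% risen and 39.9% fallen; vacuolar ATPase subunits lie at 75% risen and splicing regulators at 95.2% fallen.

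Among transcription factors the HOX genes, which set position along the body axis, had the lowest median of these lists. Of 24 tested, 17 fell and 4 rose (median -2.32), and the summed level of all 39 was 360.4 to 378 CPM against 129 to 134 CPM. HOXC11 was at 46.3, 45.1 and 46.7 CPM in the shControl libraries and at 1.3, 1.72 and 1.56 CPM in the shHDAC5 libraries (log2 fold change -4.91, SE 0.114, adjusted p = 1.35e-66, edgeR's quasi-likelihood test). HOXA10 (from 18.8 to 1.07 CPM) and HOXB5 (from 5.39 to 0.345 CPM) fell with it. In the same cluster as HOXC11, HOXC13 rose from 34.8 to 43.9 CPM. The transcripts of a HOX cluster can overlap and share reads.

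Of 9 SOX factors 4 fell and 3 rose (median -0.34), SOX12 from 45.3 to 9.51 CPM and SOX4 from 58.3 to 80 CPM. Of 22 KLF and SP factors 12 rose and 10 fell (median 0.36). KLF2, a known target of MEF2 factors, rose from 1.45 to 61.5 CPM and KLF9 fell from 79.1 to 23.6 CPM. Of 21 ETS factors 11 fell and 8 rose (median -0.56), with the related ETV4 (from 47.4 to 22.3 CPM) and ETV5 (from 21.9 to 92.3 CPM) in opposite directions and ELF4 from 60.5 to 14.4 CPM. Of 26 AP-1 and ATF factors 12 fell and 11 rose (median -0.12), a lean that turned under upper-quartile and total-count scaling. CREB5, a member of the CREB family that pairs with JUN, was at 0, 0.0699 and 0 CPM against 49.8, 50.3 and 50.8 CPM, and JUN itself rose from 14.6 to 179 CPM. The integrated stress response factor ATF4 fell from 289 to 100.3 CPM and ATF1 fell from 104 to 18 CPM.

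Grouping protein-coding genes by the letters that open their symbols, without regard to function, gave 178 families of at least 10 tested members, with 4588 genes, and 53.9% of families had a median above 0. The highest medians were those of GOLGA, SYT, DNAH, CYP and CACNA. Of 33 GOLGA genes, 28 rose and 3 fell (median 3.56), but most are near-identical GOLGA6 and GOLGA8 copies whose reads are uncertain. The single-copy Golgi proteins GOLGA1 (from 49.4 to 37.6 CPM) and GOLGA2 (from 372 to 332 CPM, turned under total-count scaling) fell, and GOLGA3 (from 153 to 280.2 CPM) and GOLGA4 (from 199.8 to 347 CPM) rose. All 12 DNAH genes, the heavy chains of the axonemal dynein of cilia, rose (median 2.78), from DNAH14 (from 31.8 to 37.2 CPM) to DNAH3 (from 0.0913 to 80 CPM). Of 12 synaptotagmins and relatives (SYT), calcium sensors of vesicle fusion, 10 rose and 1 fell (median 3.32, or 2.94 with genes without counts at their bound), SYT11 from 0.176 to 75.9 CPM. Of 28 cytochromes P450 21 rose and 4 fell (median 2.58), CYP27C1 from 7.53 to 0.211 CPM and CYP1B1 from 53.5 to 15.7 CPM among the latter, and of 13 CACNA calcium channel genes 10 rose and 2 fell (median 2.20).

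The lowest medians were those of MCM, SRSF, EEF, PARP and PRR. None of 10 MCM genes, most of them subunits of the replicative helicase, rose, and 9 fell (median -1.45). All 11 SRSF splicing factors fell (median -1.31). Of 12 EEF elongation factors and their modifiers 10 fell and 2 rose (median -1.05). Of 12 PARP genes 9 fell and 2 rose (median -0.92), and of 15 PRR genes, a group named only for proline-rich proteins, 8 fell and 6 rose (median -0.90). The largest family, 417 ZNF zinc-finger genes, was balanced, with 172 higher, 168 lower and a median of 0.00.

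No chromosome stood apart as a whole. Chromosome medians of the log2 fold change ran from -0.14 for chromosome 17 to 0.20 for chromosome 13. Over 284 windows of 10 Mb with at least 15 tested genes, the middle 50% of window medians lay between -0.17 and 0.25. Against that range 2 windows were far higher, on chromosomes 15 and X. In them 12 of 37 and 6 of 16 tested genes had no count under 1 label. Such genes passed the filter only through the other label. Chromosome 15 from 20000001 to 30000000 had a median of 4.28 (3.49 with genes without counts at their bound), with 31 of 37 tested genes higher and 6 lower. It holds GOLGA6 and GOLGA8 copies and the imprinted Prader-Willi region, where PWRN1 rose from 2.69 to 26.3 CPM, SNHG14, the host of many small nucleolar RNAs, rose from 0.0201 to 1.25 CPM, and the receptor subunit GABRA5 went from no count to 0.724 CPM. Chromosome X from 140000001 to 150000000 had a median of 2.63, with 15 of 16 tested genes higher and 1 lower. It holds testis-expressed genes such as SPANXB1, with no count against 1.89 CPM and with near copies, and the non-coding LINC00632. The lowest windows were chromosome 4 from 30000001 to 40000000 (median -0.64, 8 of 23 higher), chromosome 15 from 50000001 to 60000000 (-0.59, 18 of 57 higher) and chromosome 12 from 50000001 to 60000000 (-0.58, 50 of 172 higher), which holds the HOXC cluster. With windows of 5 Mb the lowest was chromosome 18 from 1 to 5000000 (median -1.16, 6 of 23 higher), and no window within 140000001 to 150000000 of chromosome X held 15 tested genes.

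**Figure D4:**
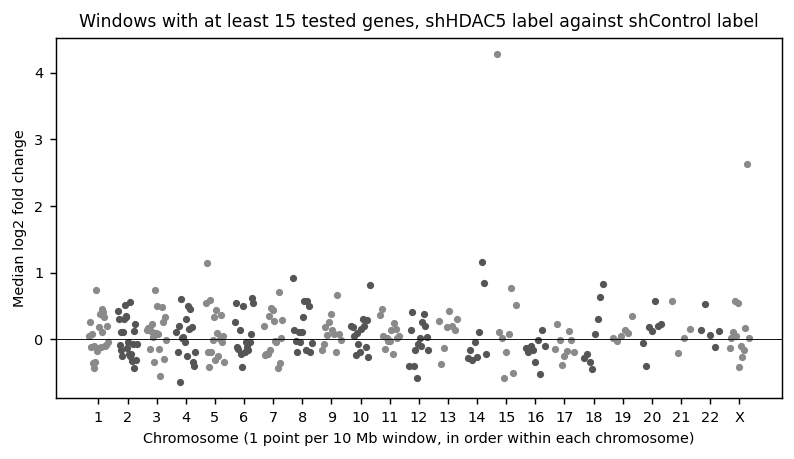
Median log2 fold change (shHDAC5 label against shControl label, y axis) of each 10 Mb window with at least 15 tested genes, 1 point per window in order along each chromosome (x axis). Of 284 windows, 1 on chromosome 15 at 4.28 and 1 on chromosome X at 2.63 lie apart from the rest.

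Long non-coding RNA genes, pseudogenes and low-level genes leaned upward, with more risen than fallen. Of 1725 long non-coding RNA genes tested 79.7% were called, 48% higher and 31.7% lower (median 0.35), against 44.1% and 44.4% of 13819 protein-coding genes (median 0.00). Pseudogenes (903 tested, 72.2% called) were 45.6% higher and 26.6% lower, and genes without a symbol (2567 tested) 46.2% higher and 26.6% lower. Small RNAs (73 tested) were 39.7% higher and 21.9% lower, and all genes tested 44.8% and 39.9%. Long non-coding RNA genes held 2.36% to 2.4% of the counts under both labels. The lean went with level. In the lowest quintile of all tested genes by mean CPM, up to 1.502 CPM, 56.2% rose and 17.6% fell. In the highest quintile, from 64.39 CPM, 39.6% rose and 53.9% fell. The median of the highest quintile, -0.17, was smaller in size than the 0.184 that total-count scaling added. Genes silent in 1 label were mostly silent under the shControl label. No count in any shControl library and at least 10 in every shHDAC5 library was found for 721 of all 61541 genes. These were 367 of 19328 coding genes, 107 of 5299 long non-coding RNA genes, 50 of 13060 pseudogenes and 192 of 19496 genes without a symbol, among others. The reverse was found for 13 of all genes, and for 5, 3, 1 and 4 of these types. The share was about the same for coding and long non-coding RNA genes and lower for pseudogenes. The larger number of genes with a count under the shHDAC5 label and its larger mitochondrial share stood beside these values, and their part in them was not tested.

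**Figure D5:**
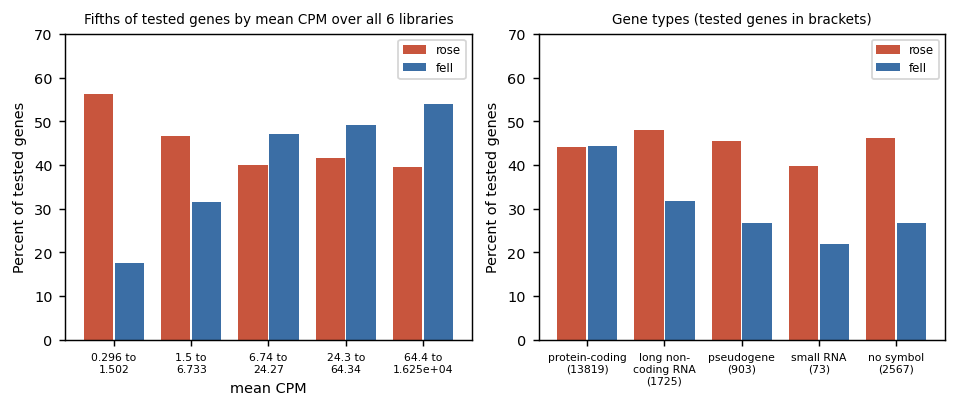
Percent of tested genes that rose (red) or fell (blue) in the libraries labelled shHDAC5 (y axis), by quintile of mean CPM over all 6 libraries (left) and by gene type (right, tested genes in brackets). Risen genes go from 56.2% in the lowest quintile to 39.6% in the highest, and fallen genes from 17.6% to 53.9%. The median log2 fold change of the highest quintile is -0.17, smaller in size than the 0.184 that total-count scaling added.

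The non-coding genes that rose most were without a count under the shControl label. UCA1 (chromosome 19, 15828947 to 15836321), first described in bladder cancer, was at 33, 33.4 and 29.6 CPM in the shHDAC5 libraries, at least 495-fold higher against 3 counts over the shControl group (adjusted p = 9.18e-62, edgeR's quasi-likelihood test). MEG3 (chromosome 14, 100826108 to 100861026), a maternally expressed transcript of the imprinted DLK1-MEG3 region, was at 9.22, 10.9 and 10.3 CPM, at least 157-fold higher, and MEG8 of the same region went from no count to 2.6 CPM. XACT, which coats the active X chromosome in early embryos, reached 10.4 CPM. The others were LINC01647 (22.9 CPM), LINC00632 (21 CPM), LINC01419 (17.3 CPM), LINC01522 (13.2 CPM), FAM238B (11.9 CPM), LINC00494 (9.9 CPM) and LINC01194 (8.76 CPM). LINC00632 gives rise to the circular RNA CDR1as, and the count table does not separate circular from linear RNA.

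The non-coding genes with the largest falls had means below 2 CPM under the shHDAC5 label. DSCAM-AS1 (chromosome 21, 40383083 to 40385358), known from estrogen receptor-positive breast cancer, was at 89.8, 89.8 and 96.7 CPM in the shControl libraries and at 0.0591, 0.172 and 0.503 CPM in the shHDAC5 libraries (log2 fold change -8.49, SE 0.132, adjusted p = 8.38e-84, edgeR's quasi-likelihood test). FENDRR (chromosome 16, 86474525 to 86508860), transcribed beside the lung and gut factor FOXF1, went from 39.9, 37.9 and 38.1 to 0.414, 0.63 and 0.839 CPM. HOTAIR (chromosome 12, 53962312 to 53974954), transcribed against the HOXC cluster, went from 34.9, 36.1 and 36.5 to 2.01, 0.687 and 0.839 CPM, as HOXC11 beside it also fell. LINC00899 fell from 79.8 to 1.99 CPM, LINC01939 fell from 41.7 to 0.535 CPM, FMNL1-DT fell from 39.5 to 1.38 CPM and NTRAS fell from 28.9 to 0.685 CPM. FOXF2-DT, LINC01132 and MIR3197 started below 10 CPM and also fell. No source used here gives the strand setting of the counting, so antisense and divergent transcripts cannot be told apart from reads of overlapping genes.

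UCA1, DSCAM-AS1 and HOTAIR had no listed promoter. The promoters of MEG3 and FENDRR are shown instead, as picked examples of a non-coding gene that appeared and one that was nearly lost. They are again 250 bases before the start from RefSeq (GRCh38.p14), MEG3 from chr14:100825858-100826107 on the plus strand, the first of 3 listed starts, and FENDRR from chr16:86508861-86509110 on the minus strand, with the same motifs in capitals.
MEG3: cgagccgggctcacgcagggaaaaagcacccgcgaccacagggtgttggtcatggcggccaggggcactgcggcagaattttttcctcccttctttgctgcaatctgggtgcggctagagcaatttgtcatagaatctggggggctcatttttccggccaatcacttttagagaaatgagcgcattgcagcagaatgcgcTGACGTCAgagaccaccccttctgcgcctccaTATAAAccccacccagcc
FENDRR: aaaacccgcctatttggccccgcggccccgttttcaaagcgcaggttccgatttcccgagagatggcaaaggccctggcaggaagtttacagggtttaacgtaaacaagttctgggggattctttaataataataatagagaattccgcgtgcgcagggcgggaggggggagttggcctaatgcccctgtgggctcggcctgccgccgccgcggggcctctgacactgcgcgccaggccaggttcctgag
MEG3 held 1 TGACGTCA, 1 TATAAA and 13 CG pairs, and FENDRR held neither motif and 19 CG pairs. The counts of risen and fallen genes with these motifs were taken for coding genes only. By CG content, coding genes silent in the shControl libraries but counted in all shHDAC5 libraries had a median of 6 CG pairs in these 250 bases (289 with a promoter in the table), close to the 5 of genes not tested. Genes that rose or fell by at least 2-fold had medians of 19 and 20, and other tested genes 21.

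The most abundant non-coding transcripts differed by less than 2-fold. The mitochondrial ribosomal RNA MT-RNR2 rose from 14930 to 17090 CPM and MT-RNR1 rose from 845 to 1273 CPM. The nuclear paraspeckle RNA NEAT1 was at 7805, 8033 and 7820 CPM against 6668, 6656 and 6553 CPM, which fell (log2 fold change -0.25, adjusted p = 6.98e-23, edgeR's quasi-likelihood test). MALAT1, which lies next to NEAT1, fell from 1086 to 844 CPM. NORAD, at 751 and 713 CPM, was called lower, but the direction turned under upper-quartile and total-count scaling.

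Name groups are given beside all genes tested, of which 44.8% were higher and 39.9% lower. The intergenic LINC genes had 258 of 462 higher and 139 lower (55.8% and 30.1%, median 0.87). Divergent transcripts, which start at the promoter of a coding neighbour, rose in 160 and fell in 80 of 317 (50.5% and 25.2%, median 0.52). MicroRNA host genes rose in 23 and fell in 11 of 38 (60.5% and 28.9%, median 0.61). Antisense-named genes rose in 295 and fell in 216 of 680 (43.4% and 31.8%, median 0.22), a risen share near that of all genes. Long non-coding genes with other names rose in 77 and fell in 82 of 190 (median 0.00), and microRNAs in 9 and 11 of 28 (median -0.30). Hosts of small nucleolar RNAs were lower more often, as were ribosome biogenesis factors. Of 26 in the list of spliced hosts 16 fell and 8 rose (61.5% and 30.8%, median -0.51; 5 rose without shHDAC5 replicate 2), SNHG4 from 81.9 to 27.5 CPM and SNHG30 from 10.5 to 29.1 CPM. Of 38 long non-coding RNAs studied in cancer 22 fell and 14 rose (median -0.20), CASC19 from 364 to 25.9 CPM among them. Under total-count scaling 17 of them fell and 16 rose (median -0.01). Antisense and divergent genes were also compared with their named partner. Of 611 antisense pairs with both genes tested, both were called in 413, and 69.5% of these moved the same way (149 both up, 138 both down). Of 314 divergent pairs both were called in 209, and 65.6% moved the same way (91 both up, 46 both down). Shared reads between partners were not separated.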

How the data were processed

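RNA was measured in 6 libraries, grouped by their labels as 3 shControl and 3 shHDAC5. The authors deposited whole-number read counts per Ensembl gene, not normalized, with each gene's length in bases, per the file headers. The submitters' processing notes name featureCounts 2.0.1, fastp 0.23.2 and FastQC 0.11.9 among their tools, beside MACS2 2.2.7.1 with deepTools 3.5.0, and hg38 as the build, with no role or order. Neither aligner nor annotation release nor strand setting is given in any source used here. The deposited peak lists of the PANC-1 samples were not used.

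Symbols were looked up by Ensembl identifier in a list of gene names. Gene types and positions came from RefSeq tables (GRCh38.p14) by symbol. Of 42045 genes with a symbol 40578 had a type, and 1 of the listed symbols, CCAT1, was not found. Low counts were removed with edgeR's filterByExpr. TMM factors scaled the libraries, and label alone entered edgeR's quasi-likelihood test (edgeR 4.0.16, R 4.3.3), adjusted by Benjamini-Hochberg over 19181 genes, threshold 0.05. CPM use TMM-scaled library sizes, RPKM divide them by the deposited length, standard errors are derived from the log2 fold change and its F statistic (their ratio after a square root of F), and bounds use 3 counts over a group without counts. Depth is given in the report, and counting error is part of the fitted spread. The code was tested on simulated counts in which few genes changed, as many up as down. Such counts cannot test the scaling where most genes differ, as here.

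The lists held 2530 genes of the table, of which 2073 were tested. The members and the 89 gene lists were chosen with earlier results of these data known. Named genes are HDAC5; per list the called members that rose and fell most, if their mean log2 CPM was 3 or more and labels did not overlap; identity markers at 10 CPM or more in all 6 libraries or defining ones under 1 CPM; the 12 coding genes that rose most and 12 that fell most in CPM; the 10 non-coding genes that rose most, 10 that fell most and the 5 most abundant; and the 5 families at each end. Other members of the lists, families and windows were named after their values were seen, and some genes that the rule names are not reported here. Alternatives were other scalings and filters, the replicate number as a block, a test against a 1.5-fold change, DESeq2 1.42.0, leaving out each library, other family and window sizes and another level for identity.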

Additional observations from a re-analysis of the deposited data

How the results depend on the processing

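The counts of 8597 risen and 7644 fallen genes went to 8353 and 7138 with DESeq2, and leaving out each library in turn gave 8499 to 8883 and 7622 to 7718. The sign of the median turned in 12 of the 89 lists over the other scalings. Upper-quartile and total-count scaling raised the median log2 fold change of all genes by 0.140 and 0.184, and turned the lean of 7 of the 89 lists over these scalings, as given with each list in the report. Lists that became tied, such as antigen presentation, are not among the 7. Under upper-quartile and total-count scaling NORAD turned to 0.07 and 0.11, SMAD4 to 0.06 and 0.10, CDH1 to 0.02 and 0.06 and GOLGA2, under total counts only, to 0.02 (log2 fold changes). Of these NORAD and GOLGA2 were called as reported. Leaving out each library in turn gave -0.39 to 0.11 for CDH1 and -0.06 to 0.23 for EPCAM, neither of which was called, and -0.13 to -0.06 for SMAD4. Without a filter on low counts 1299 non-coding genes rose, against 857. Tested against a 1.5-fold change, 4955 genes fell, 3910 coding genes rose and 3860 coding genes fell. With 5 Mb windows the highest median was 4.93, against 4.28, and the lowest -1.16, against -0.64. Of 2492 list counts over 14 alternatives, 153 moved by more than 1.5 times. With the replicate number as a block, 8514 genes rose and 7558 fell. The deviations of same-numbered libraries correlated at -0.0126, 0.00258 and 0.00593, so the numbers were not taken to pair the libraries. At this depth a gene without counts in a label may still be expressed at a low level.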
